A study of Mus musculus with 65 samples.

Results

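The reads described here carry 1 extra base at a Cas9 cut site in mouse hepatocyte DNA. They were chosen by their net length: the sequence between the matched stretches on either side of the junction was 1 bp longer than the amplicon template. This rule found 165064 of 828461 reads, of which 164866 came from the 44 libraries with an sgRNA and 198 from the 21 libraries without one. In the sgRNA libraries they were compared with 324853 indel reads, meaning reads with any net length change, and with 566047 reads in all. Reads that were contiguous on both sides up to the cut, with the added base in between, were kept apart from reads with unmatched template bases beside the cut.

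All mice were of the genotype Rosa-LSL-Cas9-EGFP, in which Cas9 and EGFP lie behind a stop cassette that Cre removes, and each was injected retro-orbitally with an adeno-associated virus (AAV). The vector carried an empty sgRNA cassette (EV) or sgRNAs, so that EV mice share the Cas9 allele. The labels place the hepatocytes in 4 arms, EV, KO, coinjection and PTG, the last an abbreviation that they do not spell out, and times are in weeks post injection (wpi). EV was sequenced at 2 wpi for each of 21 sites of 9 targets. KO had 1 library at 1 wpi, 17 at 2 wpi, 3 at 3 wpi and 3 at 8 wpi. Coinjection covered the 4 Lats1 and Lats2 sites at 2 and 3 wpi, and PTG the same sites at 2, 3 and 6 wpi. Each arm, site and time was 1 library of between 2290 and 27974 reads, with no replicate, and the labels used here do not give the mouse, its age or the source of Cre. Amplicon reads carry no marker of cell type, so the hepatocyte label could not be checked.

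Cas9 cuts both DNA strands beside the protospacer adjacent motif, and the break is then rejoined by end joining. Where the cut leaves a short overhang, filling it in before ligation adds a base, and a 1 bp insertion is among the commonest products of Cas9 cutting. In coding sequence such an insertion shifts the reading frame. The deposited tables give positions and lengths and not bases, so the identity of the inserted base, and whether it copies its neighbour, were not analysed here.

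The targets differ in function. Hnf4a (chr2:163506811-163572907, GRCm38.p6) is a transcription factor of hepatocyte identity, and Fah (chr7:84585159-84605942) acts at the end of tyrosine catabolism. Kif11 (chr19:37376382-37421863) is a mitotic motor protein. Lats1 (chr10:7681200-7716461) and Lats2 (chr14:57689662-57746212) are Hippo pathway kinases. Polg (chr7:79446231-79467911) and Polg2 (chr11:106768204-106779537) form the polymerase that copies mitochondrial DNA, and Tfam (chr10:71225468-71238328) packages that DNA. EGFP is the reporter of the Cas9 allele itself. The cut sites were not placed within exons or introns.

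At 2 wpi the median 1 bp insertion share of indel reads was 48.0% across 21 sites, with quartiles of 26.2% and 73.5%. They ranged from 4.57% at Tfam-sg2-3 to 90.3% at Tfam-sg1. The share of indel reads passed 50% at 10 sites and lay under 20% at 5. As a share of all reads, which also depends on how often a site was cut, the median was 28.6% and the range 4.44% to 79.1%. The order of the sites by share of indel reads was resolved at most steps: of 20 pairs of neighbours, 6 differed by less than the 95% interval of their difference. The intervals allow for counting error alone, since the reads carry no molecular identifiers and PCR copies cannot be removed.

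**Figure D1:**
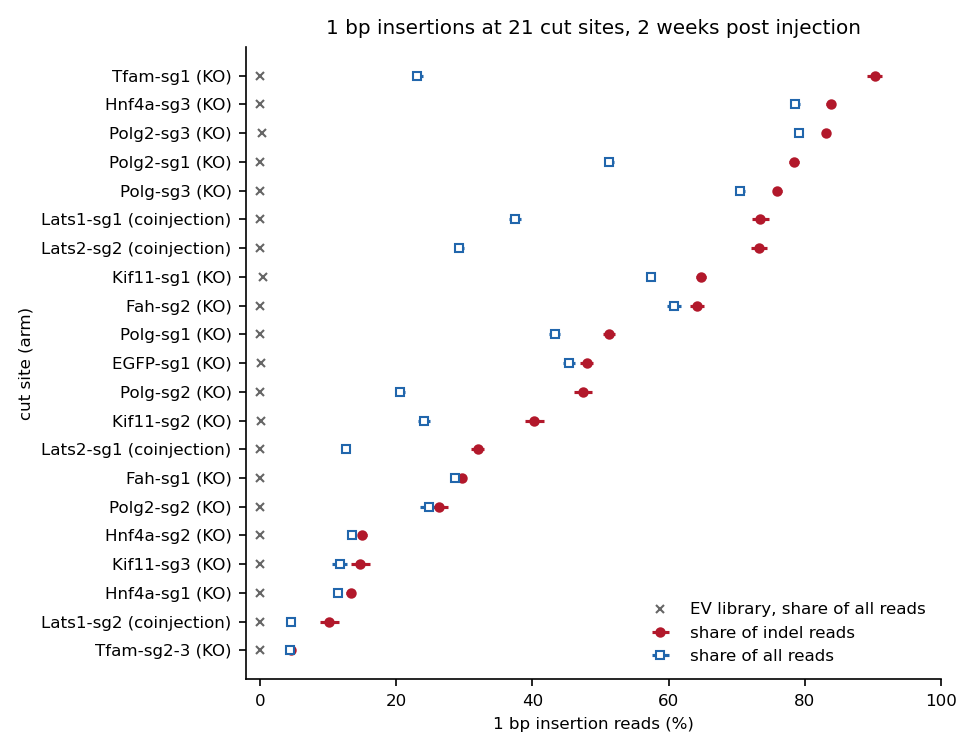
1 bp insertions at 21 cut sites at 2 wpi, as % of indel reads (filled circles), % of all reads (open squares) and % of all reads in the EV library of the site (crosses). Circles and squares have exact 95% binomial intervals, and crosses are drawn without them. The circles run from 4.57% to 90.3%, and every cross lies at 0.474% or less.

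The highest group held 5 sites of 4 targets. At Tfam-sg1 2539 of 2811 indel reads had the 1 bp insertion, 90.3% (89.2 to 91.4), but only 25.6% of reads were indel reads, so that the insertion took 23.1% of all reads. At Hnf4a-sg3 10250 of 12232 indel reads had it (83.8%), and at Polg2-sg3 10883 of 13091 (83.1%); the difference of 0.663 points between these neighbours had an interval of -0.253 to 1.58. In these libraries nearly all reads were indel reads, and the single class of 1 bp insertions made up 78.6% and 79.1% of all reads. Polg2-sg1 followed with 78.5% of indel reads and Polg-sg3 with 76.0%.

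The middle of the order held sites of 7 targets. Lats1-sg1 and Lats2-sg2 in coinjection stood at 73.5% and 73.3% of indel reads, which the interval of their difference did not separate (-1.48 to 1.82). Kif11-sg1 had 64.7% and Fah-sg2 64.2%, again not separated (-0.711 to 1.82). Polg-sg1 had 51.3%, EGFP-sg1 48.0%, Polg-sg2 47.5%, Kif11-sg2 40.3%, Lats2-sg1 32.0%, Fah-sg1 29.6% and Polg2-sg2 26.2%. EGFP-sg1 and Polg-sg2 were the only neighbours among these 7 whose interval included 0.

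At the bottom, 1 bp insertions were a minor product. Hnf4a-sg2 had 1652 of 11002 indel reads (15.0%), Kif11-sg3 394 of 2671 (14.8%) and Hnf4a-sg1 1256 of 9426 (13.3%), and the intervals did not separate neighbours among these 3. Lats1-sg2 in coinjection had 186 of 1839 (10.1%; 8.77 to 11.6). At Tfam-sg2-3, an amplicon named for 2 sgRNAs, only 726 of 15882 indel reads had the insertion (4.57%; 4.25 to 4.91). Deletions of 20 bp or more took 14880 reads there, 91.1% of all reads, and enter the denominator of this share. The next largest class after these 2, deletions of 2 to 19 bp, held 140 reads.

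Sites of the same gene lay far apart. The range within a target was 85.8 points for Tfam, 70.5 for Hnf4a, 63.4 for Lats1, 56.9 for Polg2, 49.99 for Kif11, 41.3 for Lats2, 34.6 for Fah and 28.5 for Polg. The Tfam range has at its lower end a site where most indel reads were deletions of 20 bp or more. Hnf4a showed the contrast within 1 arm and time, with 13.3% of indel reads at sg1, 15.0% at sg2 and 83.8% at sg3. The share of indel reads did not follow the overall indel share across the 21 sites (Pearson's r = -0.176, Spearman's rho = -0.139; a description over libraries that share the same EV and sgRNA arms). Tfam-sg1, with the lowest indel share, and Tfam-sg2-3, with the highest at 97.2%, were the ends of the order.

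Among insertions the single base dominated. The 1 bp class made up a median of 87.0% of insertion reads (37.3% to 97.5%) and over 50% of them at 18 sites. The next longer class, insertions of 2 bp, held a median of 1.66% of indel reads. It reached 14.8% at Kif11-sg2, 8.22% at Polg-sg2 and 7.86% at Kif11-sg1, and at Lats2-sg1 in coinjection at 2 wpi it had 0 of 9026 indel reads, against 82 of 9310 (0.881%) at 3 wpi. The exceptions to the dominance were Hnf4a-sg1 with 37.3% of insertion reads, Hnf4a-sg2 with 45.7% and Kif11-sg3 with 48.1%, 3 of the sites with few 1 bp insertions.

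The opposite product, a deletion of 1 bp, held a median of 8.11% of indel reads. Taking both 1 bp classes together, insertions were the larger at 17 sites, with an interval above 50%. They were the smaller at Fah-sg1 (43.4%; 42.5 to 44.4), Polg2-sg2 (40.2%; 38.3 to 42.1) and Hnf4a-sg1 (36.8%; 35.1 to 38.4), and at Kif11-sg3 the interval included 50% (50.4%; 46.9 to 54.0). At Fah-sg1 and Polg2-sg2 the 1 bp deletion reached 38.5% and 39.0% of indel reads. Across sites the shares of the 2 classes had r = -0.432 and rho = -0.490, values that 2 shares of the same total tend towards by construction.

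The first comparison was with the empty vector. 1 bp insertions were higher with the sgRNA than in the EV library at 21 of 21 sites as a share of all reads (Fisher's exact test, two-sided, Benjamini-Hochberg over 126 tests of 6 length classes at 21 sites). Over all classes and sites 99.2% of tests were called, all of them higher with the sgRNA, so the count is shared by other indel lengths. With the sites of a target averaged, the sgRNA libraries exceeded EV by a mean of 34.1 ± 13.4 points of all reads (SD, n = 9 targets). All 9 target means lay above 0 (two-sided exact sign-flip p = 0.00391, the lowest value 9 targets allow). Targets are not replicates of a condition, and EV shares near 0 leave little room for another sign, so this p adds nothing to the sizes. Polg2 had the largest mean difference with 51.6 points, followed by EGFP with 45.2, Polg with 44.7 and Fah with 44.6. Hnf4a had 34.5, Kif11 30.8, Lats1 20.95, Lats2 20.9 and Tfam 13.7 points. Each test compares 2 libraries and not 2 conditions, since no group had a replicate.

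The EV libraries held few 1 bp insertions. They made up a median of 0.0572% of EV reads, were highest at Kif11-sg1 with 34 of 7170 reads (0.474%) and Polg2-sg3 with 35 of 11841 (0.296%), and were found in 0 of 19237 reads at Tfam-sg2-3, which allows a share of up to 0.0156%. EV libraries with more of these reads belonged to sites with more of them under the sgRNA: the 2 shares of all reads had rho = 0.779 and r = 0.507 over 21 sites, and rho = 0.791 and r = 0.498 without the 2 farthest sites. This is a description, and the 2 libraries of a site share the amplicon.

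**Figure D2:**
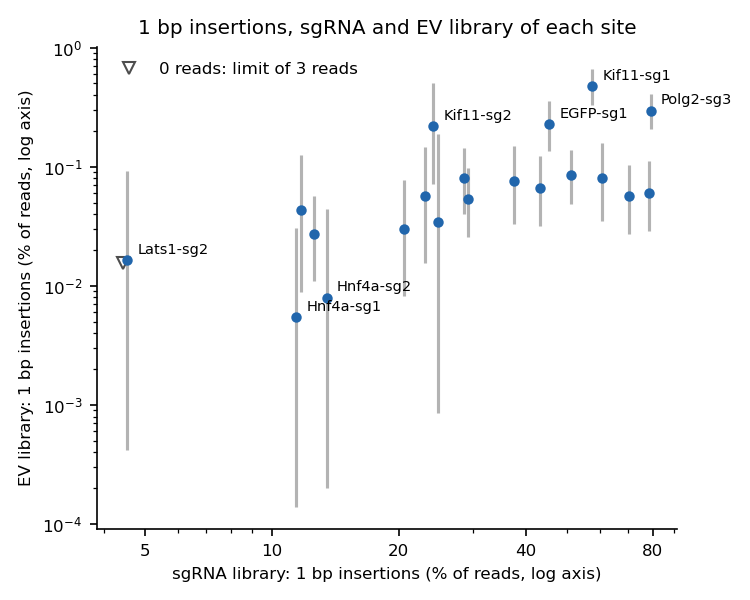
Share of 1 bp insertion reads (% of all reads, log axes) in the sgRNA library at 2 wpi against the EV library of the same site, with exact 95% binomial intervals for EV; the open triangle is Tfam-sg2-3, with 0 EV reads, drawn at the limit of 3 reads. EV shares rise from under 0.01% at Hnf4a-sg1 and Hnf4a-sg2 to 0.474% at Kif11-sg1.

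The few EV indel reads can be set beside those of the sgRNA library of the site. Of 377 EV indel reads 198 were 1 bp insertions (52.5%), and 186 of these lay at the cut (93.9%; 89.7 to 96.8). Among the 8 sites with at least 20 EV indel reads, the sgRNA share of indel reads lay inside the interval of the EV share at 7. At Kif11-sg1 34 of 47 EV indel reads had the insertion (72.3%; 57.4 to 84.4) against 64.7% with the sgRNA. At Fah-sg1 11 of 38 had it (28.9%; 15.4 to 45.9) against 29.6%, and at Kif11-sg3 3 of 22 (13.6%; 2.91 to 34.9) against 14.8%. The exception was Polg2-sg3, with 35 of 36 EV indel reads (97.2%; 85.5 to 99.9) against 83.1%. EV libraries held only 4 to 47 indel reads a site, so these intervals are wide. Reads without an indel ended 2 bp later in EV than in the sgRNA library at 20 sites and 1 bp later at 1 site; the part of this difference in the comparison was not tested.

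Nearly all 1 bp insertions sat at the cut, a split that the choice of members includes and that was not tested. In the sgRNA libraries 162421 of 164866 (98.5%) left the template intact on both sides, and over sites at 2 wpi the median was 98.7% (92.5% to 99.8%). The microhomology length was 0 for every 1 bp insertion read. This follows from the choice of members, whose 2 matched stretches lie at least 1 read base apart and cannot overlap. The other 2445 reads left template bases beside the cut unmatched and held 1 base more than that unmatched stretch. Without the bases, a true loss cannot be told from a changed base or an insertion farther from the cut. Here and below, a lost base means an unmatched one. In 1189 of the 2445 reads the loss was before the cut in template order, in 1242 after it and in 14 on both sides. Template order need not be the direction of the gene or of the sgRNA.

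The totals were nearly balanced between the sides, but single sites were not. With the sgRNA libraries of a site pooled, losses before the cut were the majority at 10 sites, with an interval above 50%, losses after it at 6, and neither at 5. Single libraries could disagree. Lats2-sg2 in coinjection had 21 reads with the loss before and 7 after the cut at 2 wpi, but 13 and 41 at 3 wpi. Kif11-sg3 had 1 and 4 at 2 wpi, but 7 and 0 at 8 wpi. At EGFP-sg1 255 of 268 reads altered on 1 side had lost bases before the cut (95.1%; 91.8 to 97.4), at Fah-sg2 286 of 307 (93.2%) and at Hnf4a-sg2 83 of 85 (97.6%). At Kif11-sg1 33 of 418 had (7.89%; 5.50 to 10.9), at Fah-sg1 16 of 219 (7.31%) and at Lats2-sg1 7 of 99 (7.07%). Both Fah sites were thus one-sided, in opposite template directions, and each kept its side at 2 and 3 wpi.

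**Figure D3:**
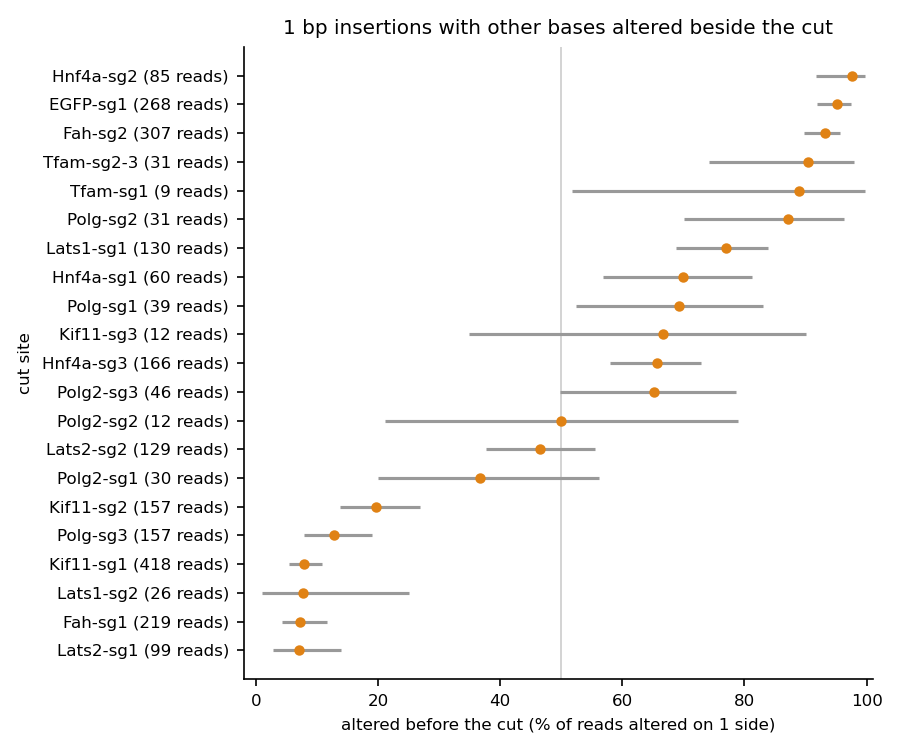
1 bp insertions altered on 1 side of the cut, by site over all its sgRNA libraries: share altered before the cut in template order (%), with exact 95% binomial intervals and the number of reads. Shares run from 7.07% at Lats2-sg1 to 97.6% at Hnf4a-sg2, and few sites lie near the line at 50%.

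In 1742 of these 2445 reads (71.2%) a single template base beside the cut was unmatched, with 2 bases in its place. At Hnf4a-sg2 the base before the cut was lost in 83 of 1652 1 bp insertions (5.02%; 4.02 to 6.19), and at Tfam-sg2-3 in 27 of 726 (3.72%; 2.46 to 5.37). At Lats1-sg2 the base after the cut was lost in 14 of 186 in coinjection at 2 wpi (7.53%; 4.18 to 12.3) and in 6 of 83 in PTG at 2 wpi (7.23%; 2.70 to 15.1), but in 4 of 259 in coinjection at 3 wpi (1.54%; 0.422 to 3.91). In PTG it was lost in 0 of 68 at 3 wpi (exact interval 0 to 5.28%) and in 0 of 265 at 6 wpi (0 to 1.38%). At Hnf4a-sg1 the base before the cut was lost in 2.55% and the base after it in 1.27%, and at Polg-sg3 the base after it in 1.18%. At Kif11-sg2 the base after the cut was lost in 2.58% of 1 bp insertions at 2 wpi and 1.33% at 8 wpi, and at Kif11-sg1 in 1.38% and 1.99%. The Fah junctions moved less between 2 and 3 wpi, from 1.60% to 1.69% at Fah-sg2 (before the cut) and from 1.58% to 1.95% at Fah-sg1 (after it).

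EGFP-sg1 at 1 wpi had 2 such junctions, with 1 base lost in 1.41% and 2 bases lost in 1.01% of 1 bp insertions, both before the cut. The first held 0.260% at 2 wpi and 1.24% at 3 wpi, and the second 0.191% and 0.114%. A changed base before the cut was also common there without any indel. It was found in 1.76% of reads of net length 0 in the sgRNA libraries and in 1.66% in EV. At Fah-sg2 this change held 2.57% of such reads with the sgRNA but 0.0504% in EV, and at Kif11-sg2 1.14% and 0.0440%. The Fah-sg2 counts were 15 of 435 at 2 wpi and 2 of 227 at 3 wpi, against 5 of 9920 in EV. Those of Kif11-sg2 were 26 of 3433 at 2 wpi and 22 of 772 at 8 wpi, against 1 of 2274 in EV. Reads of net length 0 are fewer where indels are common, so these shares are not shares of all reads. At Hnf4a-sg2 the same change held 0.0803% of reads of net length 0 with the sgRNA (1 of 1245) and 0.0319% in EV (4 of 12529), against the 5.02% among 1 bp insertions. The part of such changes in these junctions was not tested.

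The second comparison was over time. Of 24 pairs of times within a site and arm, 15 differed in the share of indel reads held by 1 bp insertions, 11 higher later and 4 lower (Fisher's exact test, two-sided, Benjamini-Hochberg over 144 tests of 6 length classes). Over all classes 52.8% of tests were called, 28.5% higher and 24.3% lower later. Time cannot be told apart from the animal, since each time was 1 library, and pairs within a site share libraries. By arm, KO had 6 calls of 8, coinjection 2 of 4 and PTG 7 of 12. In 5 PTG libraries the indel reads held fewer than 50 distinct junctions, and without these libraries 8 of 16 pairs were called, 5 higher and 3 lower.

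The changes were small against the differences between sites. In the 14 combinations of arm and site with more than 1 time, the largest difference between times had a median of 2.51 points of indel reads. It ran from 0.0366 at Kif11-sg2 to 14.3 at Lats2-sg2 in PTG. The 10 sites involved spanned 63.4 points at 2 wpi.

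**Figure D4:**
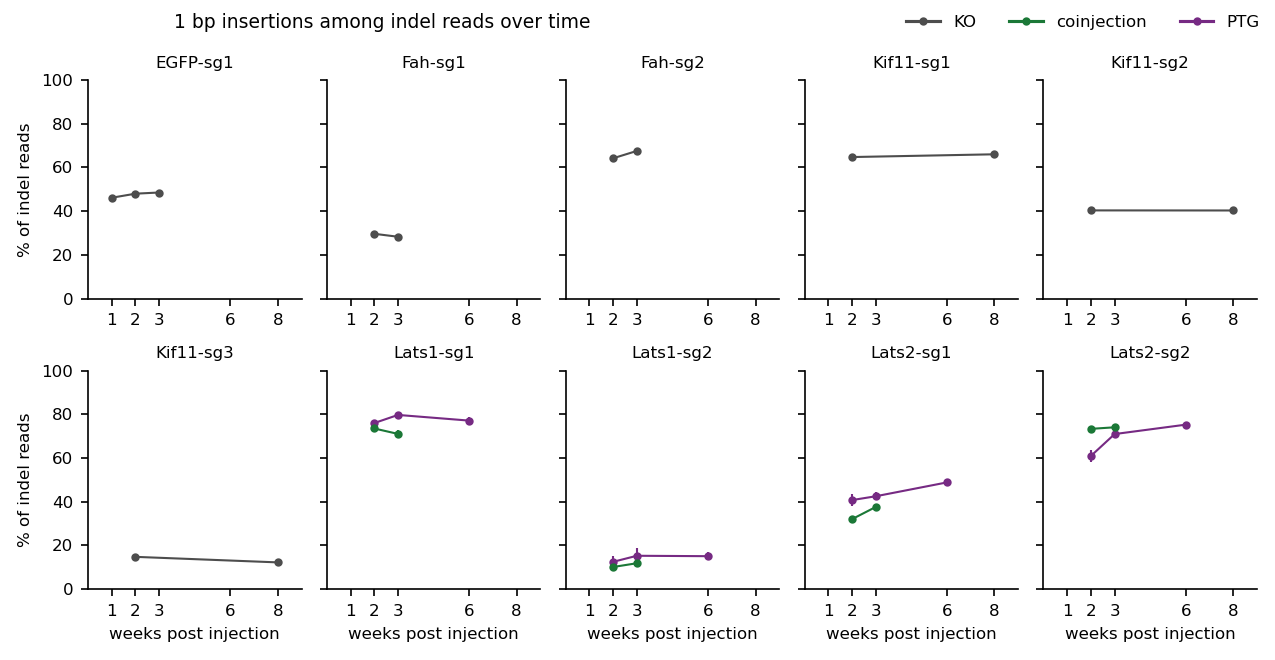
1 bp insertions as % of indel reads against weeks post injection at the 10 sites with more than 1 sgRNA library, with exact 95% binomial intervals (often smaller than the points), 1 library a point. Lines of KO sites stay nearly level, while PTG at Lats2-sg2 goes from 60.9% to 75.3%.

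EGFP-sg1 had 46.1% of indel reads at 1 wpi (44.8 to 47.5), 48.0% at 2 wpi and 48.5% at 3 wpi. The difference from 1 to 2 wpi was 1.86 points (adjusted p = 0.0467, Fisher's exact test). That from 1 to 3 wpi was 2.40 points (adjusted p = 0.00871, Fisher's exact test). Neither was called when junctions with fewer than 10 reads were left out, with differences of 0.645 points (adjusted p = 0.515, Fisher's exact test) and 0.983 points (adjusted p = 0.306). As a share of all reads, 1 bp insertions went from 28.4% to 45.5% between 1 and 3 wpi, by 17.1 points (15.8 to 18.4), and all other indels by 15.1 points (13.8 to 16.4). The 2 kinds thus grew by similar amounts while their proportion moved little.

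At Fah the sites moved in opposite directions between 2 and 3 wpi. Fah-sg1 went from 29.6% to 28.3% of indel reads, a difference of -1.35 points (Fisher's exact test, adjusted p = 0.0135). Fah-sg2 went from 64.2% to 67.5%, a difference of 3.36 points (Fisher's exact test, adjusted p = 1.71e-05). Of all reads, 1 bp insertions at Fah-sg2 gained 5.07 points while other indels changed by -2.27 points.

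Kif11 was followed for the longest time, from 2 to 8 wpi. Kif11-sg1 went from 64.7% to 66.0% of indel reads (1.26 points; Fisher's exact test, adjusted p = 0.0362). That direction turned to -2.13 points (Fisher's exact test, adjusted p = 0.000134) when only indels of 1 to 19 bp were counted. Kif11-sg2 stood at 40.3% at both times (-0.0366 points; -1.78 to 1.70), although its 1 bp insertions rose from 24.1% to 36.6% of all reads and its other indels from 35.7% to 54.2%. Kif11-sg3 went from 14.8% to 12.2% (-2.53 points; Fisher's exact test, adjusted p = 0.0131). Its 1 bp insertions changed by -1.14 points of all reads (-2.63 to 0.335) where its other indels gained 8.23 points (6.12 to 10.3).

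In coinjection at 2 and 3 wpi, Lats1-sg1 had 73.5% and 71.0% of indel reads (-2.49 points; Fisher's exact test, adjusted p = 0.0428), a direction that turned to 3.41 points (Fisher's exact test, adjusted p = 0.00256) without junctions of fewer than 10 reads. Lats2-sg1 had 32.0% and 37.6% (5.58 points; Fisher's exact test, adjusted p = 2.07e-14). Lats1-sg2, with 10.1% and 11.8%, and Lats2-sg2, with 73.3% and 74.0%, were not called. Lats1-sg2 gained a call when only insertions at the cut were counted (2.25 points; adjusted p = 0.0420, Fisher's exact test), and Lats2-sg2 among indels of 1 to 19 bp (2.02 points; adjusted p = 0.0233). Of all reads, the 1 bp insertions of Lats2-sg1 stood at 12.6% and 12.5% while other indels fell by 6.01 points, and at Lats1-sg1 1 bp insertions changed by -8.53 points and other indels by -1.70.

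In PTG the shares were followed to 6 wpi. Lats2-sg2 had 60.9%, 70.9% and 75.3% of indel reads at 2, 3 and 6 wpi, 14.3 points from first to last (interval 11.4 to 17.3; adjusted p = 1.14e-22, Fisher's exact test). Lats2-sg1 had 40.7%, 42.5% and 48.8%, 8.09 points in all (interval 5.02 to 11.1; adjusted p = 1.11e-06, Fisher's exact test). Among first-to-last changes these were the largest of the 14, at sites where distinct indel junctions numbered 25, 32 and 67 for Lats2-sg2 and 20, 38 and 102 for Lats2-sg1 at the 3 times. Lats1-sg1 had 76.0%, 79.7% and 77.1%, higher at 3 than at 2 wpi (3.71 points; adjusted p = 0.000149, Fisher's exact test) and lower at 6 than at 3 wpi (-2.60 points; adjusted p = 0.0232). Lats1-sg2, with 12.5%, 15.2% and 15.1% from 45, 54 and 154 distinct junctions, was not called between any pair of times, but gained a call from 2 to 6 wpi without junctions of fewer than 10 reads (4.12 points; adjusted p = 0.0493, Fisher's exact test).

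The share of all reads separated the PTG sites. From 2 to 6 wpi the 1 bp insertions of Lats2-sg2 rose from 3.59% to 26.7% of all reads, by 23.1 points, and its other indels by 6.47. At Lats2-sg1 the 2 gains were close, 9.54 and 9.04 points, and at Lats1-sg2 other indels gained more, 13.8 points against 2.75. At Lats1-sg1 both changed downward, by -8.21 and -3.23 points.

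**Figure D5:**
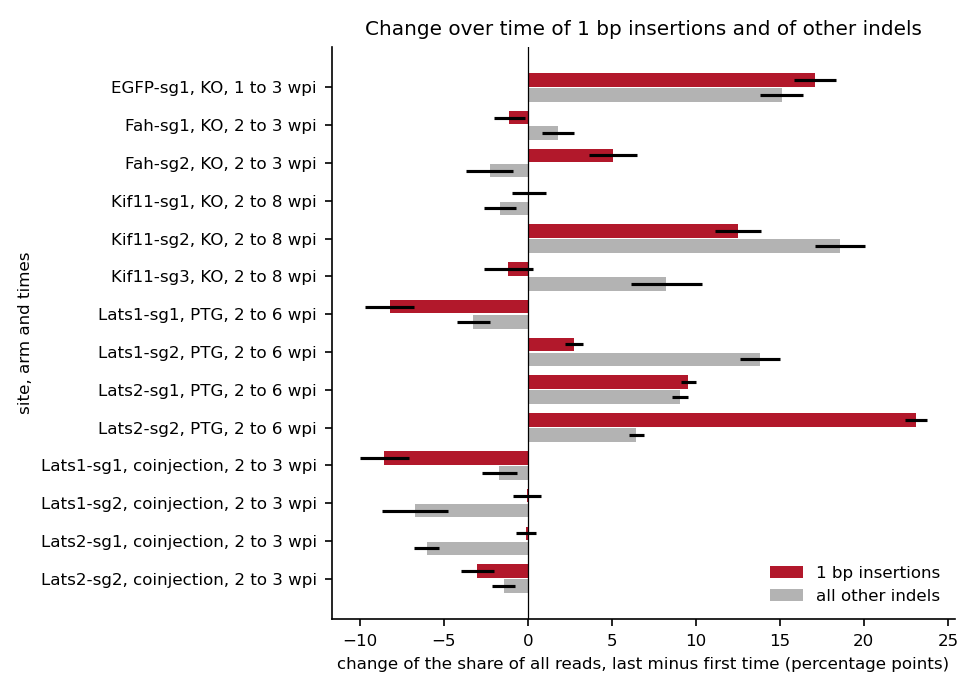
Change from first to last time, by site and arm, in the share of all reads (percentage points) held by 1 bp insertions and by all other indels; bars start at 0 and lines are 95% Newcombe intervals. The largest gain of 1 bp insertions was 23.1 points at Lats2-sg2 in PTG, and at Lats2-sg1 in coinjection other indels fell while 1 bp insertions did not change beyond the interval.

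The third comparison set PTG against coinjection at the 4 Lats sites. Of 8 pairs of libraries, 6 differed in the share of indel reads held by 1 bp insertions, 4 higher and 2 lower in PTG (Fisher's exact test, two-sided, Benjamini-Hochberg over 48 tests of 6 length classes). Over all classes 56.2% of tests were called, 22.9% higher and 33.3% lower in PTG. At 2 and 3 wpi Lats1-sg1 was higher in PTG by 2.49 points (0.843 to 4.14) and 8.69 points (6.48 to 10.9), and Lats2-sg1 by 8.72 (5.81 to 11.7) and 4.90 (2.82 to 6.99). Lats2-sg2 was lower in PTG, with differences of -12.4 points (-15.4 to -9.46) at 2 wpi and -3.10 (-5.26 to -0.977) at 3 wpi. Lats1-sg2 was not called, with 2.37 points (-0.357 to 5.39) and 3.41 points (interval 0.0608 to 7.27; adjusted p = 0.0840, Fisher's exact test). The latter was 5.47 points, and called, without junctions of fewer than 10 reads (adjusted p = 0.0135, Fisher's exact test).

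The direction was not the same at all 4 sites. With both times averaged, the site differences were 5.59, 2.89, 6.81 and -7.75 points for Lats1-sg1, Lats1-sg2, Lats2-sg1 and Lats2-sg2. Their mean was 1.88 ± 6.63 points (SD, n = 4 sites; two-sided exact sign-flip p = 0.625). Sites are not replicates and 4 of them cannot bring this test to 0.05, so it does not bear on whether the arms differ. Lats2-sg2 moved that mean most, to 5.10 points when left out, and without Lats2-sg1 it was 0.243 and without Lats1-sg1 0.650. Without the 5 libraries of fewer than 50 distinct junctions only 3 pairs remained, of which 2 were called. The Lats1-sg1 difference at 2 wpi lost its call among indels of 1 to 19 bp (1.27 points; adjusted p = 0.183, Fisher's exact test), and at 3 wpi it was 4.199 points without junctions of fewer than 10 reads.

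As a share of all reads the arms differed in both directions. Lats1-sg1 had more 1 bp insertions in PTG, by 4.47 points at 2 wpi and 21.8 at 3 wpi. The other sites had fewer in PTG at both times. The differences were -25.6 and -14.2 points at Lats2-sg2, -10.2 and -7.51 at Lats2-sg1 and -3.34 and -2.15 at Lats1-sg2. Indel reads of all lengths were also fewer in PTG at these sites. At 2 wpi they held 5.90% of reads in PTG and 39.8% in coinjection at Lats2-sg2. The shares were 5.79% and 39.4% at Lats2-sg1, and 9.65% and 44.9% at Lats1-sg2. At Lats1-sg1 they were 55.2% and 51.0%. The differences in share of all reads thus include those in the indel share. At Lats2-sg1, PTG thus held fewer 1 bp insertions among all reads and more among indel reads.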

How the data were processed

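PCR amplicons around each cut site were sequenced from genomic DNA (DNeasy extraction, Phusion Flash PCR, NEBNext Ultra II libraries, as the labels' protocols state). Tools listed in the submitters' processing notes, without roles, are deepTools, Bowtie2, R 4.2.1 and bcl2fastq, with build mm10. What software set the junctions is not given in these sources. The deposited tables hold, per the file headers, 1 line a read with template and read positions, microhomology length and net indel length, all in bp and not normalised. Of these, 65 tables were used. The 2 tables on a shortened template of the Tfam amplicon were left out.

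The cut was the highest template position before a junction. The members and lists were chosen with earlier results of these data known. Shares have Clopper-Pearson and differences Newcombe 95% intervals, and differences of differences MOVER intervals. Libraries were compared by Fisher's exact test with Benjamini-Hochberg adjustment at 0.05 over 6 length classes (insertions and deletions of 1, 2 to 19, and 20 bp or more), and targets or sites by exact sign-flip tests. The code was tested on simulated data. All sites are named, and altered junctions only if among the top 3 of the earliest sgRNA library with at least 1% of its 1 bp insertions. Other sgRNA libraries of the site are given at the same junction. Depth had a median of 12621 reads, and 0 reads allow up to 3 reads, 0.0107% to 0.131% of a library. Between the sequencer's 2 tiles, the share of indel reads differed by at most 3.12 points, with 1 of 44 libraries at an unadjusted p under 0.05 and 0 after adjustment. Symbols of 8 of 9 targets matched RefSeq's GRCm38.p6 table. A planned search for the site sequences was not run, since no genome was used here. Software was scipy 1.17.1, statsmodels 0.14.6, pandas 2.3.3, numpy 2.4.6 and matplotlib 3.10.9 under Python 3.11.15.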

Additional observations from a re-analysis of the deposited data

Results flagged for a closer look

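Changes over time of the 1 bp insertion share of indel reads were compared between arms at the 4 Lats sites and between sgRNAs of Kif11 and of Fah, 8 comparisons in all. In 6 of them the 95% interval of the difference, which covers counting error between 4 single libraries and was not adjusted over the 8, left out 0. From 2 to 3 wpi, the change in PTG exceeded that in coinjection by 6.20 points at Lats1-sg1 (3.44 to 8.96) and by 9.31 points at Lats2-sg2 (5.66 to 12.98). The first of these was 0.192 points (-2.38 to 2.80) without junctions of fewer than 10 reads, where the coinjection change reversed. At Lats2-sg1 the PTG change was the smaller, with a difference of -3.83 points (-7.44 to -0.243). With equal-length replacements counted as indels it was -3.23 points (-6.77 to 0.277). At Lats1-sg2 the difference was 1.05 points (-3.47 to 5.77). The PTG libraries of Lats2-sg1 and Lats2-sg2 at 2 and 3 wpi held 20 to 38 distinct indel junctions.

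From 2 to 8 wpi the change at Kif11-sg1 exceeded that at Kif11-sg3 by 3.79 points (1.74 to 5.86), and that at Kif11-sg2 exceeded it by 2.50 points (0.0182 to 4.99). Among indels of 1 to 19 bp these were 0.505 points (-1.82 to 2.84), with the Kif11-sg1 change reversed, and 2.54 points (-0.241 to 5.33). Between Kif11-sg1 and Kif11-sg2 the difference was 1.30 points (-0.726 to 3.32), but -2.04 (-4.13 to 0.0584) among indels of 1 to 19 bp and 2.35 (0.239 to 4.46) without junctions of fewer than 10 reads. From 2 to 3 wpi Fah-sg1 minus Fah-sg2 was -4.71 points (-6.42 to -2.99). These alternatives to the differences of changes were chosen after seeing the data.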

How the results depend on the processing

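The median share of indel reads at 2 wpi (48.0%) was 51.5% and the median share at the cut (98.7%) was 99.2% without junctions of fewer than 10 reads. The first was 53.4% among indels of 1 to 19 bp and 49.6% without Tfam-sg2-3. Alternatives chosen after seeing the data left 17 of 17 sites, 14 of 20 times and 6 of 6 pairs called without the 7 libraries under 5000 reads, and 8 of 16 times and 2 of 3 pairs without the 5 sgRNA libraries of fewer than 50 distinct indel junctions. The mean over targets lay between 31.9 and 36.7 points when each target was left out, and was 34.8 with sites as units. The mean of PTG minus coinjection lay between 0.243 and 5.10 points when each site was left out, was 0.294 at 2 wpi and 3.48 at 3 wpi alone, and was 0.676 among indels of 1 to 19 bp. Directions reversed for Lats1-sg1 in coinjection (3.41 points without rare junctions), Kif11-sg1 (-2.13 among indels of 1 to 19 bp), Kif11-sg2 (0.297 at the cut only, 0.191 with equal-length replacements counted as indels) and Lats1-sg2 in PTG from 3 to 6 wpi (0.0145 with replacements, 0.278 among indels of 1 to 19 bp). Of 53 single differences, 5 lost and 4 gained a call and 4 reversed under at least 1 alternative, and 42 kept direction and call under all that were run. Of the 53, 21 set sgRNA against EV, and none of these changed. All changes lay among the 24 pairs of times and the 8 pairs of PTG and coinjection. The cause was not tested. The 2 calls with the highest adjusted p, EGFP-sg1 from 1 to 2 wpi and Lats1-sg1 in coinjection, were also lost with each indel length as its own class (Fisher's exact test, adjusted p = 0.0544 and 0.0502), and that of Kif11-sg1 at the cut only (adjusted p = 0.112). No paired analysis was possible because the labels give no replicate numbers that pair libraries of different groups; differences within a site are those of the report. Exact intervals of a share of indel reads had a half-width of at most 3.44 points over the 44 sgRNA libraries, and are not symmetric about the share.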
